A study of Mus musculus with 12 samples.

Results

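Integrins are the cell-surface receptors by which cells hold on to the extracellular matrix. They are described here as the 10 alpha and beta subunits Itga3, Itga5, Itga6, Itga7, Itgav, Itgb1, Itgb3, Itgb4, Itgb5 and Itgb7, across 12 RNA-seq libraries of pluripotent cells from the mouse strain C57 Bl/6J. The members were taken by gene symbol, and each matched 1 of the 27914 loci in the files. All 10 were among the 12320 named loci that reached 1 FPKM in at least 3 libraries and were tested, out of 31 integrin loci in the files. FPKM scales fragments by transcript length and library size, so levels can be set side by side between genes. Each of the 4 groups held 3 libraries. There were 3 groups of embryonic stem cells (ESC) in the naive state: wild type, Sirt1KO (Sirt1 knockout) and Sirt1KO Otx2KD, in which Otx2 was knocked down as well. These grew on plates coated with 0.1% gelatin, in serum-free N2B27 with LIF, PD0325901 (1 uM), which inhibits MEK, and CHIR99021 (3 uM), which inhibits GSK3. The fourth group was wild-type epiblast-like cells (EpiLC), made from such ESC on fibronectin-coated plates in 48 h with Activin A (20 ng/ml), Fgf2 (12 ng/ml) and the serum replacement KOSR (1%). Coating, medium and cell state therefore changed together, and their effects on the receptors cannot be told apart. All Sirt1KO Otx2KD cells also carry the Sirt1 loss, and no library had Otx2 knocked down alone. The labels do not give the number of clones, how the knockdown was made, or whether replicates were separate cultures, so p-values measure only the spread between these libraries, which may be technical. The series sets the change from naive ESC to EpiLC beside those after Sirt1 loss and Otx2 knockdown.

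An integrin is a pair of 1 alpha and 1 beta chain that crosses the membrane, binds matrix outside the cell and, through talin, kindlin and their partners, the actin skeleton inside. The pair sets the ligand. The alpha5 chain with beta1 is the classical fibronectin receptor, and alphav pairs with beta1, beta3 or beta5 to read the RGD motif of vitronectin, fibronectin and osteopontin. The alpha3, alpha6 and alpha7 chains bind laminins with beta1, alpha6 also pairs with beta4 in hemidesmosomes, and beta7 is best known from lymphocytes. In the early embryo the epiblast rests on a laminin-rich basement membrane, and loss of beta1 stops development soon after implantation.

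RefSeq promoter windows (build GRCm38.p6) were found for 6 of the 10 members, with 7 start sites between them: Itga5, Itgav, Itga3 (2 starts), Itgb1, Itgb5 and Itgb7. The 250 bases before the start are printed for Itga3 and Itga5, whose transcripts had the same order of levels over the groups, and for Itgb7, which moved differently. They lie at chr11:95076715-95076964, chr15:103366792-103367041 and chr15:102231936-102232185, all on the minus strand, and are written 5′ to 3′ toward the start. Capitals mark GC boxes, the letters GGGCGG that transcription factors of the Sp family bind, or their complement CCGCCC.
Itga3: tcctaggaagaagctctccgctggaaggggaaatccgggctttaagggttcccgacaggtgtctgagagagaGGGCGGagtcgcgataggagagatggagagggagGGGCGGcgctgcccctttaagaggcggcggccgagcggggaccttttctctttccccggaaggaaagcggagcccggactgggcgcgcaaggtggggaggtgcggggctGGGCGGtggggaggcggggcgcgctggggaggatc
Itga5: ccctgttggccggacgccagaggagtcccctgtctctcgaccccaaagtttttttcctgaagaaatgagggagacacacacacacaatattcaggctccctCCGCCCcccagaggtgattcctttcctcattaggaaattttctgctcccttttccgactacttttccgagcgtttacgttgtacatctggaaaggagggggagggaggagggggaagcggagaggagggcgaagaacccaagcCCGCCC
Itgb7: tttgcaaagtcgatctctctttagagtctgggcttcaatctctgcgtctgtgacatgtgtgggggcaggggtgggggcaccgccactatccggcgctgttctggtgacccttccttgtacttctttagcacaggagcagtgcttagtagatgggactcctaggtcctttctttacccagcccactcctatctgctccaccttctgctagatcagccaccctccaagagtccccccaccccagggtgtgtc
The Itga3 window held 3 GC boxes, with first bases 178, 144 and 35 bases before the start. In the Itga5 window there were 2, at 149 and 6 bases and on the other strand, and in the Itgb7 window 0. GC made up 67.6% of the Itga3 bases, 55.6% of the Itga5 bases and 56.0% of the Itgb7 bases. Of the 7 windows, 5 held a GC box on either strand, against 32.7% of 32851 RefSeq windows of the same length. Both Itga3 windows are among the 5. The sets are unlike, since all members passed the expression filter and the RefSeq windows were not chosen by expression. The letters TAATCC, an OTX-type site, were in 0 of the 7 windows and in 6.25% of all windows. The AP-1 letters TGANTCA were likewise in 0 of the 7 and in 6.75% of all. These are matches of letters within 250 bases and do not describe binding.

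Relative depth, estimated from how finely low FPKM values are spaced, ran from 0.767 (Sirt1KO Otx2KD replicate 2) to 1.33 (EpiLC replicate 2) times that of wild-type ESC replicate 1. Mean Sirt1 FPKM was 25.8 in wild-type ESC and 15.5 and 15.6 in the knockout groups, and mean Otx2 FPKM was 7.38 in wild-type ESC, 100.2 in EpiLC, 27.0 in Sirt1KO and 6.07 after knockdown. After knockdown Otx2 was thus below, but near, its wild-type ESC level. Chromosome 11 as a whole, which carries Itga3, Itgb3 and Itgb4, was shifted against wild-type ESC. Its 1039 tested loci had a median log2 difference of -0.46 (EpiLC), -0.49 (Sirt1KO) and -0.39 (Sirt1KO Otx2KD). Chromosome 8, which carries Itgb1, was shifted upward by 0.40, 0.46 and 0.36 over 680 loci. For these 4 members the difference left after subtracting the median of their chromosome is given beside the plain one. It comes from a refit. In each library, the median deviation of the chromosome's loci from their means over all libraries was subtracted first. The values therefore differ slightly from the plain difference minus the medians above. The medians of the chromosomes of the other 6 members lay between -0.09 and 0.03 in the same comparisons.

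**Figure D1:**
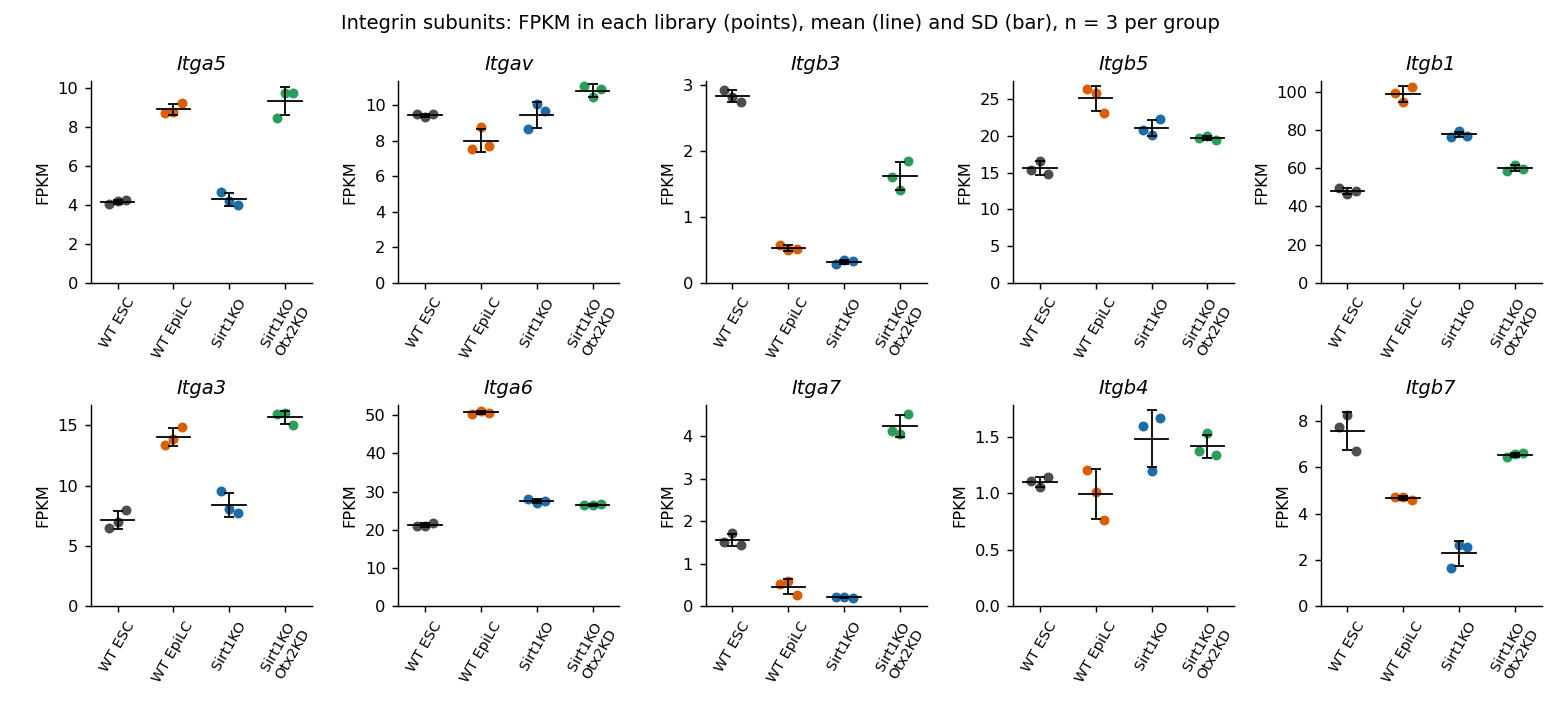
FPKM (vertical axes, linear from 0) of the 10 integrin subunits, 1 panel each, in wild-type ESC, EpiLC, Sirt1KO and Sirt1KO Otx2KD, with a point per library, a line at the mean and a bar of 1 SD (n = 3). Itga6, Itgb1 and Itgb5 stand highest in EpiLC, Itga7 in Sirt1KO Otx2KD, and Itgb3 and Itgb7 in wild-type ESC.

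Differences are given in log2(FPKM + 1), where the pseudocount shrinks the change of low genes, and were tested with limma across all 12320 loci with Benjamini-Hochberg adjustment at 0.05. In EpiLC against wild-type ESC, 5 of the 10 subunits were higher (Itga3, Itga5, Itga6, Itgb1, Itgb5), 4 were lower (Itgav, Itga7, Itgb3, Itgb7) and Itgb4 did not pass. Of all tested loci, 74.6% passed, 35.8% higher and 38.8% lower, so the count of 9 of 10 lies near the background. The median absolute difference of the members was 0.85, beside 0.40 over all loci. Here 3 members (Itga6, Itgb1, Itgb3) were called with at least 1 log2 unit, against 15.1% of loci. In Sirt1KO against wild-type ESC, 4 were higher (Itga3, Itga6, Itgb1, Itgb5) and 3 lower (Itga7, Itgb3, Itgb7), where 65% of all loci passed, 32.4% higher and 32.7% lower. The 3 lower ones were also those of at least 1 log2 unit, which 7.61% of loci reached, and the median absolute difference was 0.38 for the members and 0.29 for all loci. In Sirt1KO Otx2KD against Sirt1KO, 6 were higher (Itga3, Itga5, Itgav, Itga7, Itgb3, Itgb7) and Itgb1 was lower, where 62.6% of loci passed, 31.1% higher and 31.5% lower. Itga7 and Itgb7 reached 1 log2 unit, as did 5.71% of loci. Here the median absolute difference was 0.60 for the members and 0.26 for all loci. Sirt1KO Otx2KD against wild-type ESC gave 7 higher and 1 lower (Itgb3), where 53.9% of loci passed, 27.1% higher and 26.8% lower. Itga3 and Itga7 reached 1 log2 unit, as did 3.24% of loci, and the median absolute differences were 0.32 and 0.22. In these comparisons the libraries of the paired groups did not overlap for 9, 7, 9 and 10 members, against 76.8%, 68.5%, 67.2% and 61.3% of all loci. Set directly against Sirt1KO, EpiLC had 8 members higher and 2 lower (Itgav, Itgb4), where 69.1% of loci passed, 34% higher and 35.1% lower. Here 8 members did not overlap, against 72.4% of loci, and 0 reached 1 log2 unit, against 9.48%. The median absolute difference, 0.33 for the members, was near the 0.32 of all loci. Against Sirt1KO Otx2KD, EpiLC had 3 higher (Itga6, Itgb1, Itgb5) and 5 lower, where 74.3% of loci passed, 36% higher and 38.2% lower. There 9 members did not overlap, against 77.2% of loci, and Itga7 alone reached 1 log2 unit, against 16% of loci. The median absolute difference was 0.40 for both the members and all loci. The comparisons share groups, so their counts are not independent.

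**Figure D2:**
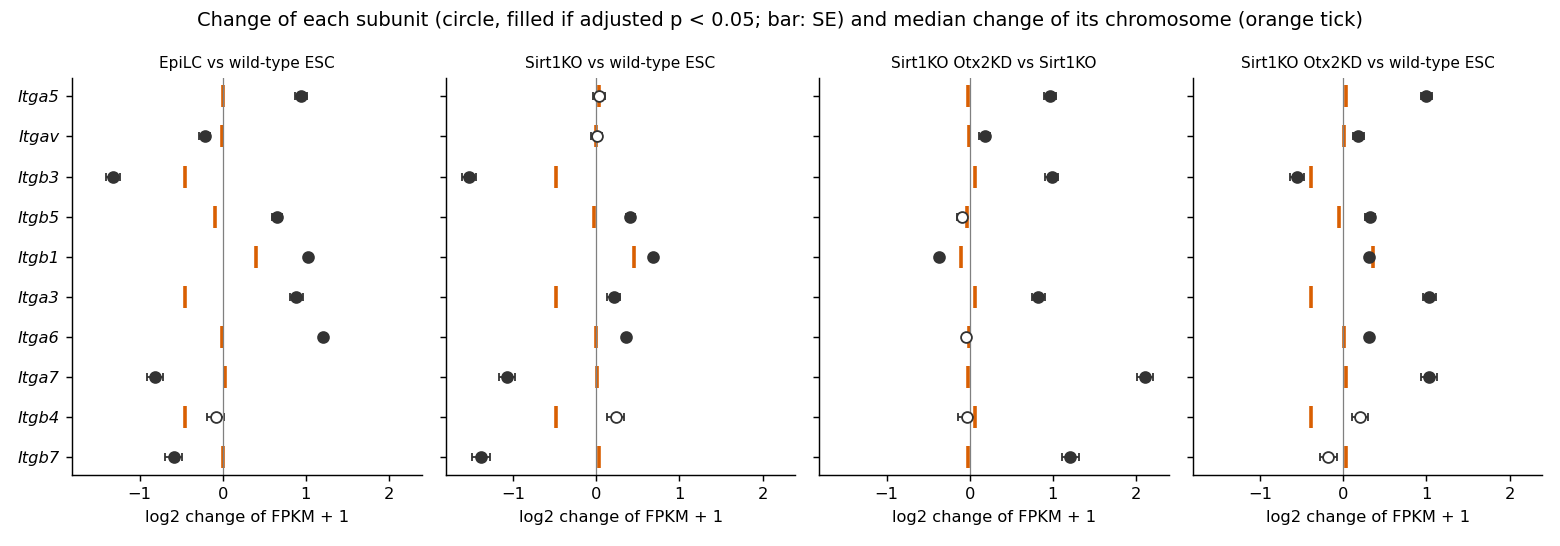
Differences in log2(FPKM + 1) of the 10 subunits (rows) in 4 comparisons (panels), as circles with bars of 1 standard error from limma, filled where the adjusted p was under 0.05, and an orange tick at the median of the subunit's chromosome. Itga7, Itgb3 and Itgb7 lie left of 0 in EpiLC and Sirt1KO against wild-type ESC and right of 0 for Sirt1KO Otx2KD against Sirt1KO, and the ticks of Itga3, Itgb3, Itgb4 and Itgb1 stand away from 0 against wild-type ESC.

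Among the receptors for fibronectin and other RGD ligands, Itga5 had 2 low and 2 high groups. Its locus (XLOC_008805, mm9 chr15:103174717-103197179) had 4.04, 4.21 and 4.23 FPKM in the wild-type ESC libraries and 4.65, 4.19 and 4.02 in those of Sirt1KO. The EpiLC libraries had 8.72, 8.77 and 9.25 FPKM and the Sirt1KO Otx2KD libraries 8.49, 9.75 and 9.76. Every library of the last pair of groups was above every library of the first pair, and within each pair the libraries overlapped. The log2 difference was 0.94 ± 0.07 (SE, adjusted p = 2.14e-08) in EpiLC against wild-type ESC and 0.97 ± 0.07 (4.55e-08) in Sirt1KO Otx2KD against Sirt1KO. Sirt1KO and wild-type ESC differed by 0.03 ± 0.07 (adjusted p = 0.699), and EpiLC and Sirt1KO Otx2KD by -0.06 ± 0.07 (0.465). The higher groups were EpiLC, on fibronectin, and Sirt1KO Otx2KD, on gelatin. A part of the coating in the Itga5 level was not tested.

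Itgav encodes the alpha chain shared by the vitronectin receptors (XLOC_013149, chr2:83564553-83647073). It varied least of the alpha chains. Wild-type ESC had 9.49, 9.33 and 9.51 FPKM, EpiLC 7.55, 8.77 and 7.73, Sirt1KO 8.68, 10.1 and 9.69, and Sirt1KO Otx2KD 11.1, 10.5 and 10.9. EpiLC lay below wild-type ESC without overlap (-0.21 ± 0.07, adjusted p = 0.00962). Sirt1KO and wild-type ESC overlapped and differed by 0.00 ± 0.07 (0.969). The Sirt1KO Otx2KD libraries were the highest, by 0.18 ± 0.07 over either ESC group (adjusted p = 0.0313 and 0.0332). Both differences were small, and both calls were lost with fewer libraries. The one against Sirt1KO was lost without Sirt1KO replicate 1 (0.135) or Sirt1KO Otx2KD replicate 1 (0.091) or 3 (0.0758), and after quantile normalization (0.0521). The one against wild-type ESC was lost without Sirt1KO Otx2KD replicate 1 (0.0961) or 3 (0.0811), or any 1 wild-type ESC library (0.0623 to 0.0801), although the difference itself stayed between 0.16 and 0.19 in those 5 fits.

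Of the beta chains that pair with alphav, Itgb1 is described after Itgb3 and Itgb5. Itgb3 was lower and Itgb5 higher than in wild-type ESC in all 3 other groups. Itgb3 (XLOC_003563, chr11:104469313-104531785), the beta chain of the platelet and osteoclast integrins, was highest in wild-type ESC, with 2.92, 2.82 and 2.74 FPKM. EpiLC had 0.577, 0.492 and 0.519 FPKM, Sirt1KO 0.288, 0.341 and 0.337, and Sirt1KO Otx2KD 1.61, 1.41 and 1.84. No libraries of different groups overlapped, and the order was wild-type ESC, Sirt1KO Otx2KD, EpiLC and Sirt1KO. Mean FPKM was 5.35-fold lower in EpiLC than in wild-type ESC, with a log2 difference of -1.32 ± 0.08 (adjusted p = 4.27e-09). In Sirt1KO it was 8.79-fold lower (-1.53 ± 0.08, 1.98e-09), and after Otx2 knockdown it was 5.03-fold above Sirt1KO (0.98 ± 0.08, 2.56e-07). With the chromosome 11 median subtracted, the differences from wild-type ESC were -0.85 in EpiLC, -1.05 in Sirt1KO and, with the knockdown, -0.15. The last, -0.55 ± 0.08 (8.27e-05) before subtraction, did not then pass (0.173). The step from Sirt1KO to EpiLC, 0.21 ± 0.08 (0.0383), was lost when any 1 library of either group was left out (0.0546 to 0.104).

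Itgb5, the vitronectin-receptor beta chain (XLOC_009140, chr16:33829750-33949424), had more FPKM than Itgb3 and less than Itgb1 in every group. Wild-type ESC had 15.4, 16.6 and 14.8 FPKM and EpiLC 26.4, 25.8 and 23.1. Sirt1KO had 20.8, 20.1 and 22.2 FPKM and Sirt1KO Otx2KD 19.7, 19.9 and 19.4. All 9 other libraries were above those of wild-type ESC, and EpiLC was above the rest. Itgb5 rose by 0.65 ± 0.06 in EpiLC (adjusted p = 1.91e-07), 0.41 ± 0.06 in Sirt1KO (3.16e-05) and 0.32 ± 0.06 in Sirt1KO Otx2KD (0.000451), each against wild-type ESC. The Sirt1KO Otx2KD libraries all lay below those of Sirt1KO, but the difference did not pass (-0.09 ± 0.06, 0.188).

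Itgb1, the common beta chain that pairs with most matrix-binding alpha chains, was the most abundant of the 10 members in all 12 libraries (XLOC_024216, chr8:131209553-131257479). Wild-type ESC had 49.4, 46.5 and 47.9 FPKM, EpiLC 99.1, 94.3 and 102, Sirt1KO 76.5, 79.3 and 76.9, and Sirt1KO Otx2KD 58.6, 61.7 and 59.3. The groups did not overlap and were ordered EpiLC, Sirt1KO, Sirt1KO Otx2KD, wild-type ESC. Each step passed. Against wild-type ESC, Itgb1 was higher by 1.02 ± 0.04 in EpiLC (adjusted p = 2.52e-11) and by 0.68 ± 0.04 in Sirt1KO (3.29e-09). The knockdown libraries were below Sirt1KO (-0.37 ± 0.04, 2.25e-06) and above wild-type ESC (0.31 ± 0.04, 1.44e-05). After subtraction of the chromosome 8 median, 0.63 was left in EpiLC (4.93e-09), 0.22 in Sirt1KO (0.000264) and, with the knockdown, -0.06 (0.205). Only the EpiLC rise therefore stayed above 0.5 log2 units.

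Of the laminin-binding alpha chains, Itga6 had the highest FPKM in every group and the largest plain rise in EpiLC, which Itga3 exceeded once chromosome medians were subtracted (1.36 against 1.23) (XLOC_013109, chr2:71624962-71696500). Wild-type ESC had 21.1, 21.0 and 21.9 FPKM and EpiLC 50.3, 51.1 and 50.6. Sirt1KO had 28.0, 27.0 and 27.6 FPKM and Sirt1KO Otx2KD 26.4, 26.5 and 26.8. Replicates were close, and EpiLC stood far from all ESC groups. The rise was 1.21 ± 0.04 in EpiLC (adjusted p = 2.23e-12), 0.35 ± 0.04 in Sirt1KO (1.13e-06) and 0.30 ± 0.04 in Sirt1KO Otx2KD (8.99e-06). Sirt1KO Otx2KD differed from Sirt1KO by -0.05 ± 0.04, which did not pass (0.255). The median difference of chromosome 2 was within 0.01 of 0 in these comparisons.

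Itga3, another laminin-receptor alpha chain (XLOC_004234, chr11:94905795-94938028), resembled Itga5 more than Itga6. Wild-type ESC had 6.50, 7.00 and 7.98 FPKM and Sirt1KO 9.58, 8.04 and 7.71, which overlapped. EpiLC had 13.4, 13.9 and 14.9 FPKM and Sirt1KO Otx2KD 16.0, 16.0 and 15.1, all above both. The difference from wild-type ESC was 0.89 ± 0.08 in EpiLC (adjusted p = 2.2e-07) and 1.03 ± 0.08 in Sirt1KO Otx2KD (1.7e-07), and EpiLC lay below Sirt1KO Otx2KD without overlap. That difference did not pass (-0.15 ± 0.08, 0.111), but passed in a fit of only those 2 groups (0.0358). Sirt1KO Otx2KD was 0.83 ± 0.08 above Sirt1KO (1.04e-06). Sirt1KO alone gave 0.21 ± 0.08 (0.0364), which was lost without wild-type ESC replicate 1 (0.147) or 2 (0.0883), or Sirt1KO replicate 1 (0.177). Relative to chromosome 11, the 3 differences from wild-type ESC were 1.36, 1.44 and, in Sirt1KO, 0.70 (4.48e-06).

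Itga7, a laminin receptor best known from muscle (XLOC_002068, chr10:128370868-128398044), was low in all groups and had the widest relative range of the 10. Wild-type ESC had 1.50, 1.73 and 1.45 FPKM, EpiLC 0.529, 0.602 and 0.262, and Sirt1KO 0.222, 0.217 and 0.201. Sirt1KO Otx2KD had 4.12, 4.05 and 4.52 FPKM. The groups did not overlap. Mean FPKM was 7.32-fold lower in Sirt1KO than in wild-type ESC (-1.08 ± 0.10, adjusted p = 3.35e-07) and 3.36-fold lower in EpiLC (-0.81 ± 0.10, 3.77e-06). With Otx2 knockdown it was 19.8-fold higher than in Sirt1KO (2.11 ± 0.10, 7.05e-10) and passed the wild-type ESC level by 1.03 ± 0.10 (1.08e-06). EpiLC exceeded Sirt1KO by 0.26 ± 0.10 (0.0277), a call that was lost without EpiLC replicate 1 (0.0891) or 2 (0.122), or Sirt1KO replicate 2 (0.057) or 3 (0.0627).

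Itgb4, the hemidesmosome beta chain that pairs with alpha6, stayed near 1 FPKM (XLOC_003628, chr11:115836038-115874033). The libraries had 1.11, 1.05 and 1.14 FPKM in wild-type ESC, 1.20, 1.01 and 0.767 for EpiLC, 1.59, 1.20 and 1.66 for Sirt1KO, and 1.37, 1.53 and 1.34 for Sirt1KO Otx2KD. Its locus shares coordinates with Galk1 (group means of 135, 95.4, 57.7 and 111 FPKM in the same order), and whether counting used strand is not given in the sources used here, so its values are uncertain. No difference from wild-type ESC passed: -0.08 ± 0.10 in EpiLC (adjusted p = 0.479), 0.24 ± 0.10 in Sirt1KO (0.0556) and 0.20 ± 0.10 in Sirt1KO Otx2KD (0.112). Relative to chromosome 11 they were 0.39 (0.00271), 0.72 (2.37e-05) and 0.61 (0.000196), all of which passed. The EpiLC value thus changed sign with the chromosome median subtracted. Without Sirt1KO replicate 2 or after quantile normalization, the Sirt1KO difference passed as well (0.0183 and 0.0165). Direct comparison put EpiLC below Sirt1KO (-0.32 ± 0.10, 0.0128), a call lost without EpiLC replicate 3 (0.0669) or Sirt1KO replicate 3 (0.0558).

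Itgb7, the beta chain of the lymphocyte receptors for mucosal addressin and E-cadherin, was 1 of the 3 subunits that fell in both EpiLC and Sirt1KO and rose with Otx2 knockdown (XLOC_008789, chr15:102046425-102062366). Its libraries read 7.72, 8.27 and 6.70 FPKM (wild-type ESC), 4.72, 4.71 and 4.59 (EpiLC), 1.68, 2.64 and 2.55 (Sirt1KO) and 6.45, 6.57 and 6.61 (Sirt1KO Otx2KD). The order was wild-type ESC, Sirt1KO Otx2KD, EpiLC and Sirt1KO. Itgb7 was 3.30-fold lower in Sirt1KO than in wild-type ESC (-1.39 ± 0.11, adjusted p = 5.19e-08), and lower in EpiLC by a smaller amount (-0.59 ± 0.11, 0.00016). Direct comparison put EpiLC above Sirt1KO (0.80 ± 0.11, 1.23e-05). The knockdown libraries were 2.85-fold above Sirt1KO (1.21 ± 0.11, 3.12e-07). They all lay below wild-type ESC, but that difference did not pass (-0.18 ± 0.11, 0.168).

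Markers of other cells were read beside these genes. The summed FPKM of 11 fibroblast or feeder genes was 123 to 143 in wild-type ESC, 67.1 to 71.1 in EpiLC, 12.4 to 16.3 in Sirt1KO, where Fap was listed at 0, and 253 to 257 in Sirt1KO Otx2KD. Of the 10 tested, 10 were lower in Sirt1KO than in wild-type ESC, against 32.7% of all loci. In Sirt1KO Otx2KD 10 were higher than in Sirt1KO, against 31.1% of all loci. In EpiLC 7 were lower and 1 higher than in wild-type ESC, against 38.8% and 35.8% of all loci. The order of this sum is that of Itga7, and it shares the low EpiLC and lower Sirt1KO levels of Itgb3 and Itgb7. The part of such cells in the Itga7, Itgb3 and Itgb7 differences was not tested. In bulk RNA, fewer cells of a type and less RNA per cell cannot be told apart. For the lymphocyte subunit Itgb7, the 8 leukocyte genes summed to 13.7 to 17.7 FPKM in wild-type ESC, 7.88 to 8.03 in EpiLC, 35.1 to 37.6 in Sirt1KO and 19.4 to 21.5 in Sirt1KO Otx2KD. The sum was highest in Sirt1KO, where Itgb7 was lowest. Most of the sum was Laptm5 (13.6, 5.57, 33.7 and 17.3 in the same order of groups). A part of leukocytes in the Itgb7 differences was not tested. Cd3e, the only other one of the list that was tested, had means of 1.49, 1.10, 2.41 and 2.69. Against wild-type ESC, Cd3e was higher in Sirt1KO (0.45 ± 0.15, adjusted p = 0.0171) and Sirt1KO Otx2KD (0.56 ± 0.15, 0.00622). Ptprc, the defining leukocyte gene, did not exceed a mean of 0.00653 in any group and was listed at 0 in Sirt1KO. The 7 primitive endoderm genes summed to 5.42 in EpiLC and to 2.06, 2.08 and 4.01 in the ESC groups. The state markers went with the labels: 8 naive markers summed to 1482 in wild-type ESC and 327 in EpiLC, and 5 primed markers to 27.3 and 623. In Sirt1KO and Sirt1KO Otx2KD the naive sums were 1181 and 1538 and the primed sums 155 and 34.5. The naive markers did not all move with their sum. Of the 8, 6 were lower and 2 higher (Klf4 and Tfcp2l1) in Sirt1KO than in wild-type ESC, against 32.7% and 32.4% of all loci.

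**Figure D3:**
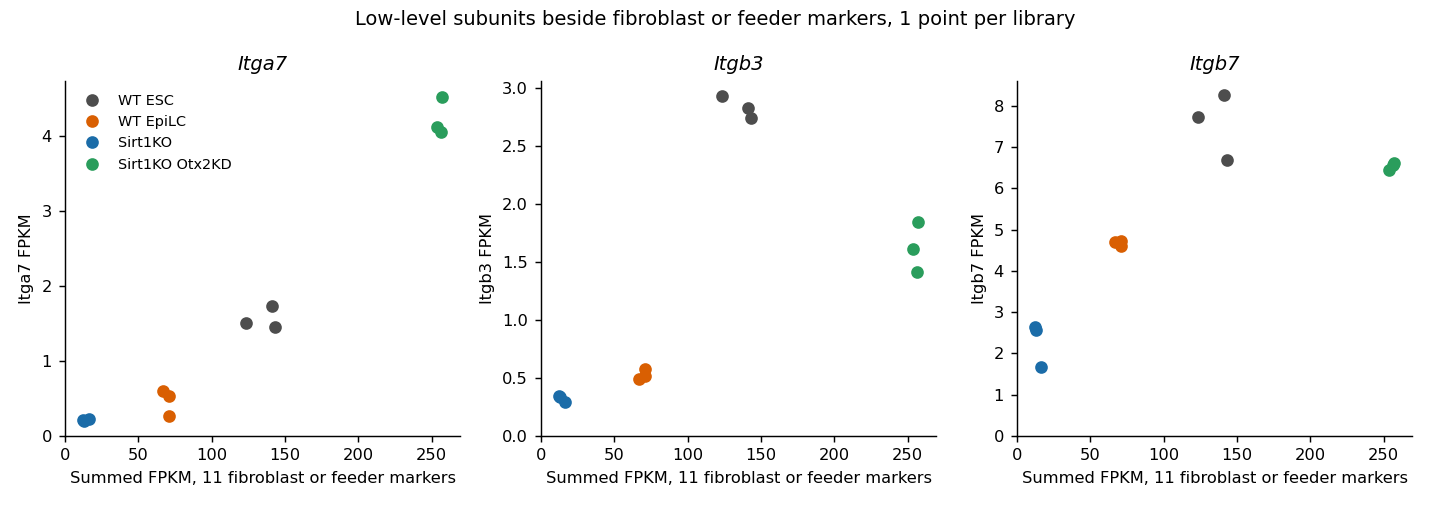
FPKM of Itga7, Itgb3 and Itgb7 (vertical axes) against the summed FPKM of 11 fibroblast or feeder markers (horizontal axes), with 1 point per library colored by group and linear axes from 0. Sirt1KO libraries lie at the lower left in all 3 panels, and Sirt1KO Otx2KD, with the highest marker sums (253 to 257), has the highest Itga7 but less Itgb3 and Itgb7 than wild-type ESC.

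The makeup of the receptor pool followed from these levels. All 10 subunits together came to 118.7 ± 0.45 FPKM in wild-type ESC (mean ± SD, n = 3), 212.0 ± 2.38 in EpiLC, 152.6 ± 0.67 in Sirt1KO and, with the knockdown, 155.7 ± 2.03. Itgb1, the largest part, lies on the shifted chromosome 8. With chromosome medians removed, the totals were 127.2 in wild-type ESC, 209.5 in EpiLC and 146.2 in Sirt1KO. The ratios and shares below are of plain FPKM. The 2 knockout groups had similar plain totals but different parts. Alpha chains made 49.9 ± 1.02 in Sirt1KO and 66.6 ± 0.50 with Otx2 knockdown, while beta chains made 102.7 ± 1.66 and 89.1 ± 1.80. The beta to alpha ratio was accordingly 2.06 ± 0.07 in Sirt1KO and 1.34 ± 0.03 in Sirt1KO Otx2KD, with 1.72 ± 0.09 in wild-type ESC and 1.58 ± 0.06 in EpiLC. Itga6 made 48.8% of the alpha total in wild-type ESC, 61.7% in EpiLC, 55.1% in Sirt1KO and, with the knockdown, 39.8%. The share of Itgav was 21.7% in wild-type ESC and 9.76% in EpiLC, as Itgav fell and Itga6, Itga3 and Itga5 rose. On the beta side, Itgb1 was 63.9% of the total in wild-type ESC, 75.9% in EpiLC, 75.5% in Sirt1KO and, with the knockdown, 67.2%. Itgb7 was 10.1% in wild-type ESC, 3.60% in EpiLC, 2.23% in Sirt1KO and, with the knockdown, 7.35%, and Itgb3 was 3.77%, 0.41%, 0.31% and 1.82%. Itgb5 kept to between 19.3% and 22.1%. These shares are of transcript levels and do not measure the pairs on the cell surface.

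**Figure D4:**
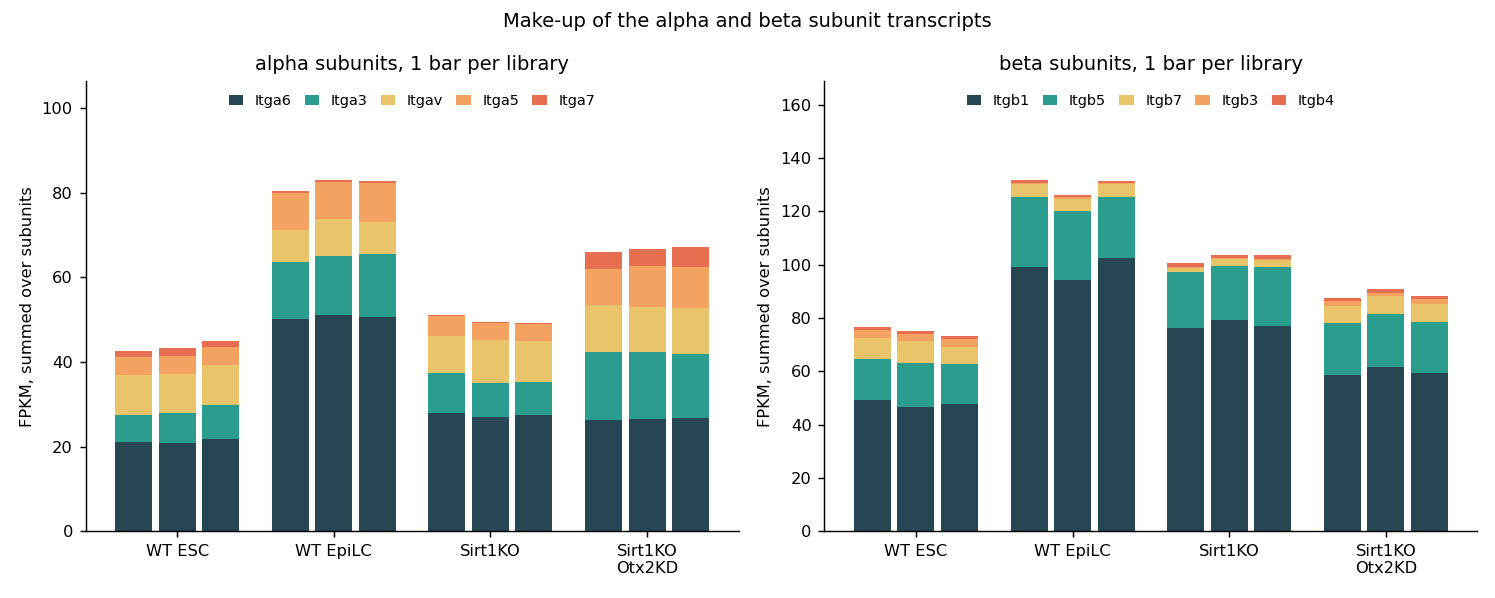
FPKM of the 5 alpha subunits (left) and 5 beta subunits (right), stacked in 1 bar per library with linear axes from 0, for the 3 libraries of each group. Itga6 and Itgb1 form the base of every bar, the EpiLC bars are the tallest (means of 82.1 and 129.9 FPKM), and the Sirt1KO Otx2KD bars are taller than those of Sirt1KO on the alpha side and shorter on the beta side.

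Most of the tested genes on the list named RGD-type ligands were lower in EpiLC and in Sirt1KO. The name is a label for the list, and whether each member carries an RGD site was not checked. Of 16 tested, 11 were lower and 4 higher in EpiLC than in wild-type ESC, against 38.8% and 35.8% of all loci. Their median was -0.44, beside -0.02 for all loci. Fibronectin itself, Fn1, went from 220 FPKM to 128 (-0.77 ± 0.04). Its means on gelatin were also 161 in Sirt1KO and 218 in Sirt1KO Otx2KD. The EpiLC plates were coated with the protein, and a part of the coating in the Fn1 level was not tested. Also in EpiLC, Spp1 (osteopontin) went from 508 to 243 (-1.06 ± 0.05) and Mfge8, a ligand of alphav integrins, from 130 to 41.2 (-1.64 ± 0.04). Ctgf, a matricellular protein, went from 55.1 to 14.9 (-1.82 ± 0.05). In Sirt1KO 10 were lower and 3 higher, against 32.7% and 32.4% of all loci. The higher ones included Cyr61 (34.3 to 53.1 FPKM, 0.62 ± 0.08) and Ctgf (55.1 to 62.1, 0.17 ± 0.05). Spp1 had a mean of 600 FPKM in Sirt1KO. The summed FPKM of the 22 listed ligands was 998 in wild-type ESC, 487 in EpiLC and 947 in Sirt1KO. Fbn1 (fibrillin) was at 0.463 FPKM against 4.74 in wild-type ESC (-1.97 ± 0.07), and Postn (periostin), which is also on the fibroblast list, at 0.313 against 6.72 (-2.56 ± 0.09). After Otx2 knockdown 13 were higher than in Sirt1KO and 2 lower (median 0.67), against 31.1% and 31.5% of all loci, with Postn at 29.4 FPKM. The fibroblast or feeder sums given above had the same direction as most of these ligands in each comparison.

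Laminin chains, the ligands of the Itga3, Itga6 and Itga7 receptors, showed a mixed picture. Of 8 tested, 2 were higher and 3 lower in EpiLC, 5 higher and 2 lower in Sirt1KO, and 7 higher and 1 lower in Sirt1KO Otx2KD, each against wild-type ESC. Their medians were -0.15, 0.30 and 0.68. Of all loci, 35.8% were higher and 38.8% lower in EpiLC and 32.4% and 32.7% in Sirt1KO. In Sirt1KO Otx2KD the shares were 27.1% and 26.8%. The same shares stand beside the counts of the lists that follow. In EpiLC, Lamb1 went from 15.1 to 34.7 FPKM (1.15 ± 0.05) and Lama5 from 15.5 to 23.3 (0.56 ± 0.05), while Lama1 went from 3.24 to 0.732 (-1.29 ± 0.07). In Sirt1KO, Lama1 rose to 6.57 (0.84 ± 0.07) and Lamc1 from 46.6 to 62.4 (0.41 ± 0.04). Lama1, an embryonic laminin alpha chain, thus moved in opposite directions in EpiLC and Sirt1KO. The hemidesmosome genes had 3 tested members. Lad1 rose in EpiLC (0.353 to 1.45 FPKM, 0.87 ± 0.12) and in Sirt1KO (3.65, 1.79 ± 0.12). Plec rose in both (0.18 and 0.38), and Dst fell in EpiLC (-0.35) and rose in Sirt1KO (0.44).

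Inside the cell, 21 linkers and activators between integrin tails and actin were tested. In EpiLC 10 were higher and 6 lower (median 0.11), in Sirt1KO 11 and 6 (0.15), and in Sirt1KO Otx2KD against wild-type ESC 17 and 2 (0.28). Actn4 (alpha-actinin) went from 62.0 to 127 FPKM in EpiLC (1.02 ± 0.05) and 97.8 in Sirt1KO (0.65 ± 0.05), and the filamin Flna from 44.3 to 76.8 (0.78 ± 0.04) and 74.0 (0.73 ± 0.04). Parvb, a parvin that binds the integrin-linked kinase, rose in Sirt1KO from 3.02 to 8.42 (1.23 ± 0.07). Of 20 signalling genes, 9 were higher and 8 lower in EpiLC. The Src-family kinase gene Yes1 fell from 59.9 to 17.0 FPKM (-1.76 ± 0.06), the adaptor gene Crk from 71.8 to 40.9 (-0.80 ± 0.04, chromosome 11), and the kinase gene Pak1 rose from 12.8 to 27.9 (1.07 ± 0.05). In Sirt1KO 6 were higher and 10 lower, with Dock1 at 5.72 against 13.0 (-1.06 ± 0.07), Cav1 (caveolin) at 0.520 against 4.35 (-1.83 ± 0.12) and Git1 at 20.5 against 37.4 (-0.83 ± 0.07, chromosome 11).

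Of 13 inhibitors and trafficking genes, 3 were higher and 5 lower in EpiLC and 4 and 3 in Sirt1KO. Cib1, whose product binds integrin tails, fell from 94.5 to 32.5 FPKM in EpiLC (-1.51 ± 0.07) and to 48.2 in Sirt1KO (-0.95). The endocytic adaptor gene Dab2 rose in EpiLC (0.455 to 2.32, 1.19 ± 0.10), and Rab11fip1 and Rab4a, which act in receptor recycling and lie on chromosome 8, rose in Sirt1KO (0.87 and 0.61 ± 0.07). Of 12 lateral partners in the membrane, 4 were higher and 5 lower in EpiLC, and 8 and 4 in Sirt1KO. The tetraspanin genes Cd9 and Cd63 fell in EpiLC, from 265 to 79.3 (-1.73 ± 0.07) and from 65.5 to 20.5 (-1.64 ± 0.07), and Slc3a2, which encodes the CD98 heavy chain, rose from 84.5 to 154 (0.86 ± 0.03). In Sirt1KO, Emp2 (0.65 to 3.82, 1.54 ± 0.10), Tspan4 (11.1 to 19.0, 0.72 ± 0.06) and Slc3a2 (0.50) rose. Every difference given with a standard error or as a change in these lists passed the adjusted p of 0.05. Over all 8 lists, 94 genes were tested. Of them 35 were higher and 39 lower in EpiLC (median 0.03), 40 and 35 in Sirt1KO (0.06), 45 and 20 in Sirt1KO Otx2KD against Sirt1KO (0.16), and 54 and 12 in Sirt1KO Otx2KD against wild-type ESC (0.22). Over all tested loci the corresponding medians were -0.02, 0.01, -0.01 and 0.00. Of all tested loci, 35.8% were higher and 38.8% lower in EpiLC, and 32.4% and 32.7% in Sirt1KO. In Sirt1KO Otx2KD, 31.1% were higher and 31.5% lower than in Sirt1KO, and 27.1% and 26.8% than in wild-type ESC.

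**Figure D5:**
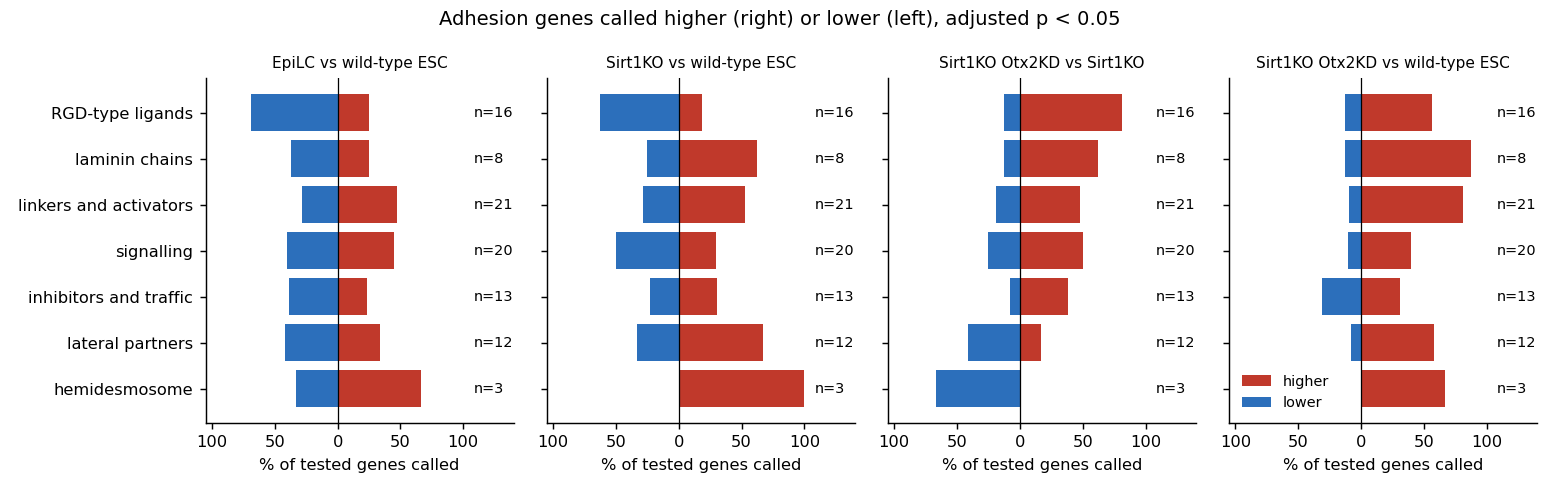
Percent of the tested genes of 7 adhesion lists (rows, number tested as n) called higher (red, right of 0) or lower (blue, left of 0) at an adjusted p under 0.05, in 4 comparisons (panels). Of the 16 RGD-type ligands, 11 are lower in EpiLC than in wild-type ESC and 13 are higher in Sirt1KO Otx2KD than in Sirt1KO. The same is true of 38.8% and 31.1% of all tested loci.

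Across the 12 libraries, the locus most like each member was sought by Pearson correlation of log2(FPKM + 1). These values describe 12 libraries in 4 groups and share the group differences. Itga3 had Scap (r = 0.989), which encodes the escort protein of the SREBP factors, and then Itga5 (0.973). Itga5 had Gtse1 (0.980) among its closest loci. For Itga6 the closest were Kif1b (0.997) and Bag4 (0.996), and for Itgb1 Kars (0.996), also on chromosome 8, and Ccna2 (0.995), the cyclin A gene. Itga7 was closest to Ddr2 (0.993), which encodes a collagen receptor of mesenchymal cells, and to Atg16l2 (0.990). Itgb7 was closest to Tdrd12 (0.989) and to Dnmt1 (0.988), the maintenance DNA methyltransferase gene. Itgb5 had Gpatch2 and Gm17296 (both 0.976), Itgav had Tbc1d20 (0.955) and Ankrd10 (0.954), and Itgb4 had the lowest values, with Tbc1d5 (0.935) and Snai1 (0.895). For Itgb3 the top locus carries a symbol that had turned into a date in the files (0.997), followed by Slco5a1 (0.994). Between members, r was 0.93 for Itgb1 and Itgb5, 0.91 for Itga6 and Itgb1, and -0.90 for Itgb1 and Itgb3.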

How the data were processed

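RNA of 12 libraries in 4 groups of 3, grouped by their titles, was analysed. Per the labels' protocols, Trizol-extracted RNA went through oligo-dT purification and the Tru-Seq protocol. TopHat, Cufflinks, Cuffdiff and mm9 are named in the submitters' processing notes, without versions. The deposited files give FPKM for each locus, which the authors computed. Strand use in counting, library scaling and read totals are not given in the sources used here, so depth was estimated only relative to 1 library, from the spacing of values under 0.1 FPKM. Identical pairs of libraries numbered 0.

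Of 27914 loci, 4778 carry no name and were left out. Named loci (12320) were kept if 3 or more libraries reached an FPKM of 1. They were fitted as log2(FPKM + 1) with limma 3.58.1 in R 4.3.3, with 1 mean per group over all 12 libraries and empirical Bayes moderation (trended and robust, residual df of 8). A Benjamini-Hochberg adjusted p under 0.05 was called. Low FPKM values are noisier, and the pseudocount of 1 shrinks their differences. The comparison of EpiLC with Sirt1KO Otx2KD was added after seeing the data, as recorded among the alternatives. The fit was tested on simulated data. Alternatives were other pseudocounts, filters, scalings and variance models, chromosome medians subtracted, unnamed loci included, a replicate block and leaving out each library.

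Members and lists were chosen with earlier results of these data known. Named genes were all 10 members, Sirt1 and Otx2, up to 3 called genes per list with the largest moderated statistic in EpiLC and in Sirt1KO, and the 2 loci most correlated with each member. Some genes that this rule names are not reported here. Fn1, Cyr61 and the marker genes named lie outside that rule and were chosen after their values were seen. Promoters are RefSeq windows of GRCm38.p6. Locus coordinates come from the deposited files and are taken to be mm9.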

Additional observations from a re-analysis of the deposited data

How the results depend on the processing

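Counts of members called stayed within 1.5 times the main count in every alternative but one. With an FPKM of at least 5 in at least 3 libraries, 7 members were tested and EpiLC against Sirt1KO Otx2KD had 5 called, not 8, since fewer entered the test. With single libraries left out, members called ranged from 9 to 9 in EpiLC, 6 to 8 in Sirt1KO and 7 to 8 in Sirt1KO Otx2KD against wild-type ESC, and from 6 to 7 in Sirt1KO Otx2KD against Sirt1KO. They ranged from 7 to 9 in EpiLC against Sirt1KO and 7 to 8 in EpiLC against Sirt1KO Otx2KD. Sign changed for 4 values near 0 and for 1 called value. Itgb4 in EpiLC was 0.39 with chromosome medians removed and ranged from -0.16 to 0.0017 with libraries left out. In Sirt1KO, Itgav was -0.00080 with median-of-ratios scaling and -0.038 to 0.060 with libraries left out, and Itga5 was -0.0022 with chromosome medians removed and -0.016 to 0.069 with libraries left out. Itgb4 in Sirt1KO Otx2KD against Sirt1KO ranged from -0.12 to 0.017 with libraries left out. The called value was that of Itgb1 in Sirt1KO Otx2KD against wild-type ESC, 0.31 before and -0.064 (adjusted p = 0.205) with chromosome medians removed. Itga3 in EpiLC against Sirt1KO Otx2KD passed only in a fit of those 2 groups (0.0358). Itga3 in Sirt1KO was also lost in a fit of only the 2 groups compared (adjusted p = 0.0836), without a filter (0.0566) and with unnamed loci (0.063). The causes were not tested. Replicate numbers did not pair the samples: same-numbered libraries had correlations of -0.107 to 0.170 in their deviations, and 3 of 12 were closest to their own number. A replicate block gave 9 members called in EpiLC, 6 in Sirt1KO (Itga3 lost, 0.0552) and 8 in Sirt1KO Otx2KD against wild-type ESC, and 7 in Sirt1KO Otx2KD against Sirt1KO. Over all loci it gave 9080, 7893, 6500 and 7567. The number of libraries and the low FPKM of Itga7, Itgb3 and Itgb4 limit what can be resolved.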

Other observations

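Of the 17 other integrin subunits with a single locus, Itga9 alone passed the filter. Itgae was left out of that count, since 4 loci carry its symbol and the same coordinates, and their values were widely apart. One of them had FPKM of 290, 0 and 1022 in the 3 EpiLC libraries. Itga9, a receptor chain for tenascin, had a mean of 0.282 FPKM for wild-type ESC and 1.31 for EpiLC (1.51, 1.17 and 1.25). Its means were 0.277 for Sirt1KO and 0.245 for Sirt1KO Otx2KD. It passed the filter only through the EpiLC libraries, so its test depends on the filter and is not given. Itga1, a collagen-receptor chain, stayed under 1 FPKM and was not tested. It had 0.137, 0.104 and 0.0674 FPKM for wild-type ESC and 0.890, 0.833 and 0.809 for EpiLC, without overlap. Its means in Sirt1KO and Sirt1KO Otx2KD were 0.0867 and 0.094. Itgad and Itgb2l were listed at 0 in all 12 libraries.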
